A study of Danio rerio with 25 samples.

Results

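This section describes 150 zebrafish transcripts whose mean level was lower than control at 0.03 μg/L citalopram and close to control at the 3 higher concentrations. They were chosen on these group means. Of 32963 transcripts listed in at least 1 of the 4 dose tables, 30242 were listed in all 4, and 22957 of those had a mean of at least 50 normalized counts in the treated and the control group of every table. L denotes log2 of the treated mean over the control mean of the same table, so that a negative L is a lower treated mean. At 0.9, 50 and 250 μg/L, 13613 transcripts had an absolute L under 0.2 in each table, and of these the 150 with the lowest L at 0.03 μg/L were taken. A normalized count is a read count divided by a factor for the depth of its library.

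Wild-type embryos were left without drug as controls (in 0.3× Danieau solution) or exposed in the same medium to 0.03 or 0.9 μg/L citalopram, or to 50 or 250 μg/L, until 24 hpf (hours post-fertilization), then washed and kept without drug until harvest at 48 hpf. Each of the 5 groups had 5 libraries of total RNA after depletion of ribosomal RNA, and each library came from 50 pooled whole embryos. Batches of embryos, RNA extraction or library preparation were not examined here. The values used are the authors' means over the libraries of a group, and values of single libraries were not analysed here. The authors' own standard errors and p-values were not used, so no difference in this section was tested against replicate error. All 4 comparisons use the same control libraries.

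Citalopram is a selective serotonin reuptake inhibitor, which blocks the transporter that returns serotonin from the synapse into the releasing neuron. Serotonin is a transmitter in the brain and also a signal in the gut and in blood vessels. A gene can produce several transcripts by alternative promoters and splicing, and the tables list each transcript separately, so a lower transcript need not be a lower gene. From group means of pooled whole embryos alone, fewer cells of a type and less RNA per cell cannot be told apart. The paper estimated cell type proportions from its bulk data with a single-cell reference and reported none significantly changed at any dose. From p-values not adjusted for multiple tests, it proposed that 0.03 μg/L may have affected some types, lens cells and neutrophils among them. Estimates of cell type proportions were not made here. Of the 150 transcript IDs, 0 could be paired with a gene symbol through the tables used here, as was the case for 0 of all 32963. The members are therefore described by level, size and dose pattern, most of them by their rank in L at 0.03 μg/L (rank 1 is the lowest), and neither gene functions nor cell type markers were examined.

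At 0.03 μg/L the members stood at 34.1% to 66.3% of their control means, with a median of 62.9%. A mean at or under 50% of control was found for 5 of the 150. On the log2 scale L at 0.03 μg/L ranged between -1.55 and -0.59, with a median of -0.67 and quartiles of -0.75 and -0.62. Most members lay near the shallow end of this range, since 88 had an L above -0.7 and at most -0.6, and a further 9 lay above -0.6. Another 26 had an L above -0.8 and at most -0.7, and 22 had one above -1 and at most -0.8. All 150 were at least 1.5-fold lower, which follows from how they were chosen. Among all 22957 transcripts with sufficient means, 2.75% were at least 1.5-fold lower at 0.03 μg/L and 0.322% at least 2-fold lower.

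**Figure D1:**
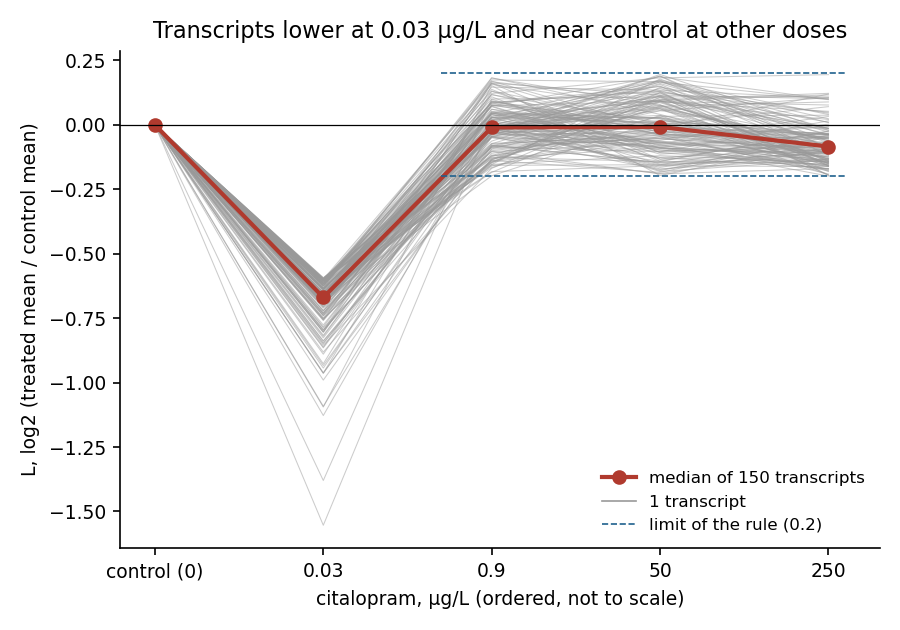
L (log2 of treated mean over control mean) of each of the 150 transcripts in grey and their median in red, with concentrations in order along the horizontal axis and control at 0. The median is -0.67 at 0.03 μg/L and lies between the dashed limits of 0.2 at the other doses, as the rule requires.

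The deepest difference was that of ENSDART00000098632.5. Its authors' means were 116.7 normalized counts at 0.03 μg/L and 342.4 in control, an L of -1.55. In the tables of the higher doses its means were 338.3 at 0.9 μg/L against 333.6 in control, 371.9 at 50 μg/L against 339.9 in control, and 290.7 at 250 μg/L against 332.9 in control. The 250 μg/L mean gave an L of -0.20, close to the limit of the rule, so this transcript was also below control at the highest dose, by a much smaller amount.

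The transcript of rank 2 had means of 322.9 at 0.03 μg/L and 840.3 in control, an L of -1.38. At the higher doses it stood above control by similar amounts, with an L of 0.10, 0.11 and 0.11 in order of dose. Here the mean at 0.03 μg/L was separated from 4 group means that lay close together.

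The remaining 3 members at or under 50% of control had smaller differences. Rank 3 had means of 343.2 at 0.03 μg/L and 749.8 in control (L -1.13), rank 4 had 497.8 at 0.03 μg/L and 1063 in control (L -1.09), and rank 5 had 62.6 at 0.03 μg/L and 133.4 in control (L -1.09). They differed in their pattern at the higher doses. Rank 3 had an L of 0.01, 0.19 and -0.12 in order of dose. Rank 4 was above control at 0.9 μg/L (L 0.15) and below it at 50 μg/L (L -0.20) and 250 μg/L (L -0.07), and rank 5 was below it at each of these doses, with an L of -0.02, -0.06 and -0.15. Its mean at 0.03 μg/L lies near the minimum of 50.

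Ranks 6 to 10 had an L between -0.99 and -0.94 at 0.03 μg/L. Their means at 0.03 μg/L were 251.3, 149.0, 287.4, 225.2 and 146.2 normalized counts in order of rank, against 499.1, 290.6, 560.2, 438.8 and 281.1 in control. Each was thus at 50.3% to 52.0% of its control mean. Of these, rank 8 stood highest at 250 μg/L (L 0.19) and rank 9 lowest (L -0.18), which spans nearly the whole band that the rule allows.

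At the shallow end the list has no natural boundary. The last 3 transcripts inside had an L of -0.594, -0.594 and -0.593 at 0.03 μg/L, and the first 3 outside had -0.593, -0.593 and -0.593. Among the 13613 transcripts near control at the higher doses, 162 (1.19%) were at least 1.5-fold lower at 0.03 μg/L, of which the members are the 150 lowest. Over these 13613 transcripts L at 0.03 μg/L, which the band did not limit, had quartiles of -0.17 and 0.17.

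**Figure D2:**
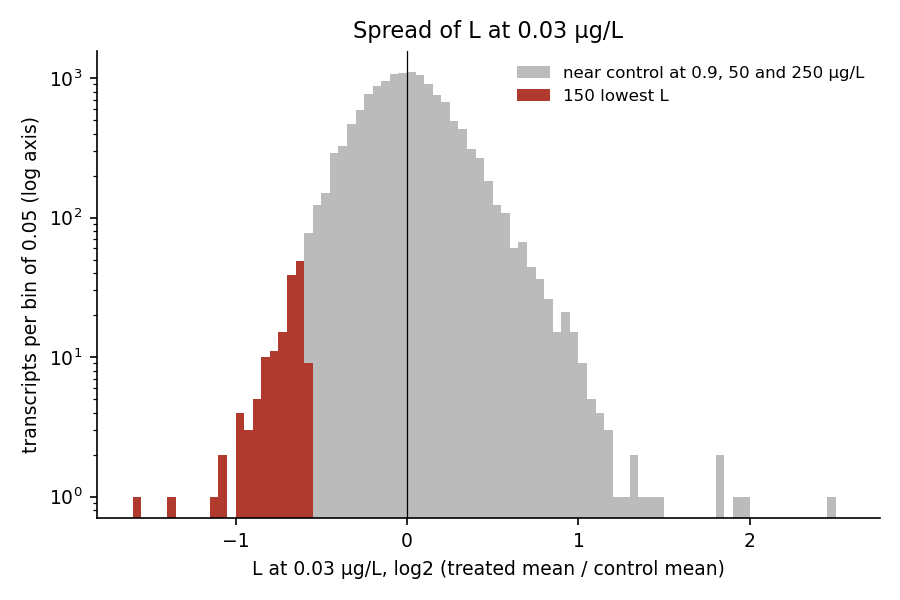
Number of transcripts by L at 0.03 μg/L (log2 of treated mean over control mean, bins of 0.05, log vertical axis) for the 13613 transcripts near control at the higher doses, with the 150 lowest in red. The highest L among the 150 is -0.593, in the flank of a continuous distribution, and the upper tail reaches 2.47.

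The lower tail was shorter than the upper one. When the rule was mirrored to take the 150 transcripts with the highest L at 0.03 μg/L from the same 13613, their L ranged between 0.74 and 2.47 with a median of 0.87, compared with an absolute median of 0.67 for the lower transcripts. At an absolute L of at least 0.6, 141 transcripts were lower and 317 higher, and at an absolute L of at least 1, 5 were lower and 33 higher. The same inequality was present over all 22957 transcripts, where 2.75% were at least 1.5-fold lower and 6.58% at least 1.5-fold higher at 0.03 μg/L. The minimum mean also applied to the treated group at 0.03 μg/L. A transcript with a control mean near this minimum could therefore count as higher by these cuts but not as lower. The lowest control mean was 54.7 normalized counts in the mirrored list and 79.7 in the members. The filter thus favoured the upper tail, and how far it accounts for this inequality was not tested.

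Transcripts as low as the members at 0.03 μg/L were mostly outside the band at another dose. A total of 604 of the 22957 (2.63%) had an L at or below that of rank 150, and 150 of these 604 (24.8%) were within the limit of 0.2 at 0.9, 50 and 250 μg/L. In order of dose, 29.1%, 48.5% and 55.6% of the 604 were outside the band, compared with 13.4%, 27.6% and 21.6% of all 22957. The 604 were picked for a low ratio to control libraries that also enter L at the higher doses. How far this choice accounts for their higher shares was not tested, and transcripts above and below the band were not counted separately. The highest dose alone removed 100 transcripts, 50 μg/L alone 68 and 0.9 μg/L alone 27, while 92 were outside at all 3. The members are thus a minority of the transcripts low at 0.03 μg/L, and the band at 250 μg/L removed the most.

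Within the band, the members sat near control at 0.9 and 50 μg/L and slightly below it at 250 μg/L. Their median L was -0.01 at 0.9 μg/L (quartiles -0.08 and 0.05), -0.01 at 50 μg/L (quartiles -0.09 and 0.09) and -0.08 at 250 μg/L (quartiles -0.14 and -0.03). Across the band as a whole, 13613 transcripts, the medians were 0.00, 0.02 and 0.00 in the same order. At 250 μg/L the members thus sat below the centre of the band, whereas at the other doses they sat near it. The members were picked for a low ratio to the same control libraries, so these values are given side by side and not as a shared response. For 31 of the 150 members the absolute L stayed under 0.1 at all of the higher doses. In the band as a whole this held for 5367 of the 13613 transcripts, a larger share. For 3 members it stayed under 0.05. These 3 had ranks 104, 121 and 126. Their means were 475.7, 700.9 and 804.3 normalized counts at 0.03 μg/L against 739.6, 1074 and 1228 in control.

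The treated groups were also set beside each other. For this, each table was put on the scale of the 0.03 μg/L table by the median ratio of their control means, a factor of 1.00 to 1.03 that is the same for all transcripts of a table. On this scale the median of log2 of the 0.03 μg/L mean over another treated mean was -0.68 against 0.9 μg/L, -0.69 against 50 μg/L and -0.60 against 250 μg/L. Each member was lower at 0.03 μg/L than in each other treated group, which the rule fixes, and the smallest differences were -0.43, -0.40 and -0.42 in the same order. The median difference was smallest against 250 μg/L.

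The rule holds the 3 higher doses within 0.2 of control and takes the lowest L at 0.03 μg/L, so the means of the other 4 groups lie close together and apart from 0.03 μg/L by construction. The following values describe how far. The range of control, 0.9, 50 and 250 μg/L had a median of 0.17 on the log2 scale (0.04 to 0.35), and the 0.03 μg/L mean lay below the lowest of them by a median of 0.57 (0.40 to 1.38). In 94 members this gap was more than 3 times the range of the other 4 groups, and the widest separation in these terms was a gap 14.3 times the range. Among the other 4 groups, 250 μg/L was the lowest in 81 members (54.0%), followed by 50 μg/L in 29, 0.9 μg/L in 27 and control in 13. In the 13613 transcripts of the band, 250 μg/L was the lowest of the 4 in 26.5% and control in 23.9%. The choice of members on their ratio to control favours a high control mean, and how far it accounts for the place of control in this order was not tested. The order among the 3 higher doses was not tested either.

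**Figure D3:**
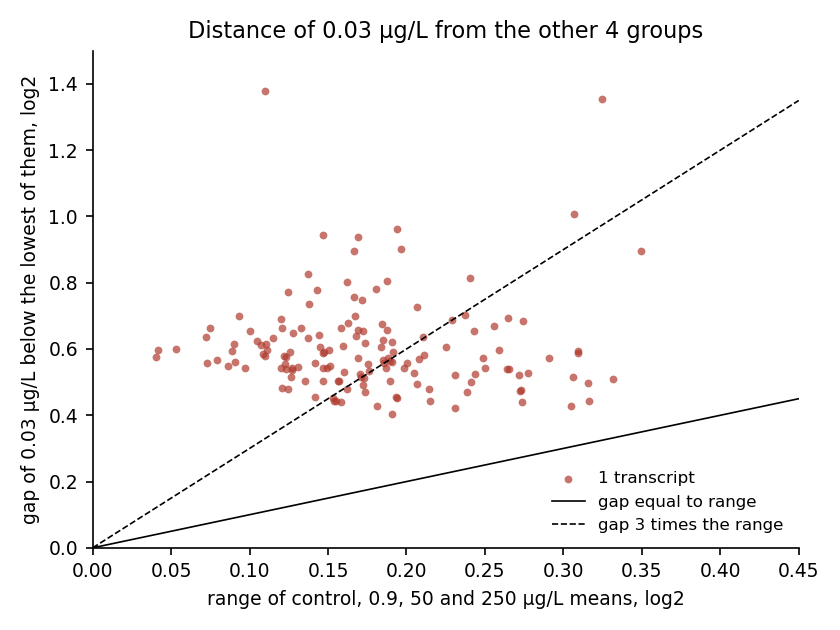
For each of the 150 transcripts, the log2 distance of the 0.03 μg/L mean below the lowest of the other 4 group means (vertical axis) against the log2 range of those 4 means (horizontal axis). The rule bounds both axes and so places the points above the solid line of equality. Within these bounds, 94 points lie above the dashed line at 3 times the range.

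The members covered a broad span of levels, given here as normalized counts that are not divided by transcript length. Their control means ranged between 79.7 and 6033 normalized counts with a median of 286.9 (quartiles 146.1 and 554.7), against a median of 417.4 over the 13613 transcripts of the band and 298.8 over all 22957. Control means of at least 1000 were found for 22 members and means under 100 for 15. At 0.03 μg/L the median of the members was 166.7, and 12 had a mean under 60, close to the minimum of 50. A transcript with a control mean near 50 could not enter the list, because its treated mean would have been under the minimum.

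Transcripts of low level entered the list more often. When the 13613 transcripts were divided into 4 bins of equal size by control mean, the members made up 1.56% of the lowest bin (53 of 3404), 1.35% of the second (46 of 3403), 0.852% of the third (29 of 3403) and 0.646% of the highest (22 of 3403). The SD of L at 0.03 μg/L across transcripts was 0.303 in the lowest bin and 0.252 in the highest. Both the share of members and this spread decreased with level. The median L of the members was similar in the 4 bins, at -0.67, -0.68, -0.67 and -0.65 in order of level. The same cut in L applied to every bin and most members lay near it, so this similarity follows largely from the rule. The part of counting error in these shares was not tested.

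**Figure D4:**
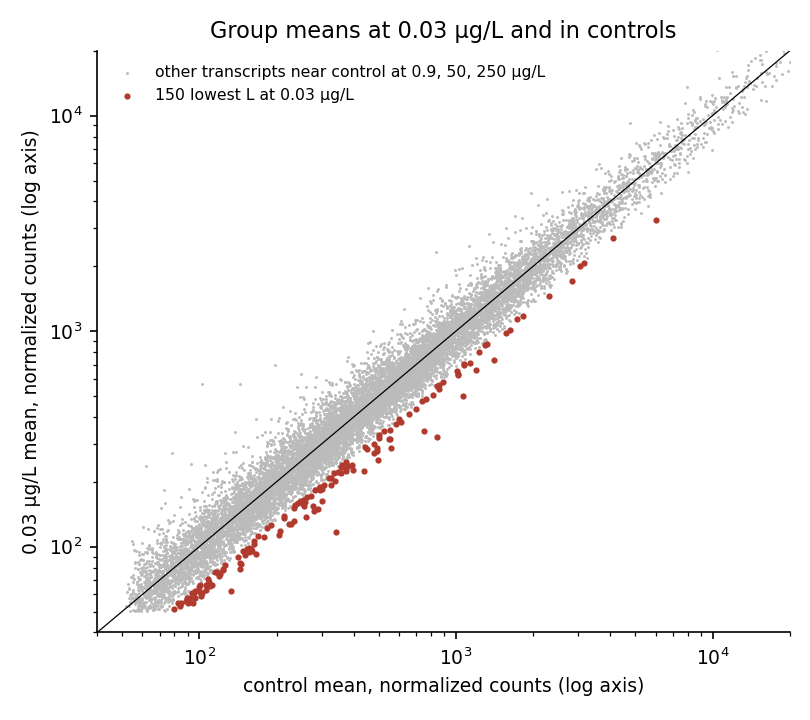
Authors' mean normalized counts at 0.03 μg/L (vertical) against control (horizontal), both on log axes, for transcripts near control at the higher doses in grey and the 150 members in red, with the line of equality. Axes end at 20000, beyond which 73 transcripts that are not members lie. The members run along the lower edge of the cloud from control means of 79.7 to 6033.

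The member with the highest counts in control was ENSDART00000139103.2, of rank 14. Its authors' means were 3275 normalized counts at 0.03 μg/L and 6033 in control, an L of -0.88. In the tables of the higher doses its means were 5372 at 0.9 μg/L against 5895 in control, 6154 at 50 μg/L against 6014 in control, and 6041 at 250 μg/L against 5886 in control. It was thus slightly below control at 0.9 μg/L (L -0.13) and slightly above it at 50 and 250 μg/L (L 0.03 and 0.04). The members next below it in control mean had means of 2701, 2080 and 2004 normalized counts at 0.03 μg/L, against 4112, 3166 and 3032 in control. These 3 had an L of -0.61, -0.61 and -0.60, near the shallow end of the list. The 8 members with the highest control means together held 31.2% of the summed control means of the list.

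Summed over the 150 members, the means came to 49056 normalized counts at 0.03 μg/L and 80191 in control, 61.2% of control. This was 0.167% of all normalized counts in the treated group and 0.283% in control, so the list is a small part of the counted reads. At the higher doses the summed treated means were 99.97%, 101.1% and 95.5% of control in order of dose. The rule sets this pattern for each member, so the sum shows it by construction.

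A property that the rule did not use directly is the version of the transcript ID, which Ensembl raises when the transcript model is revised. Version 1, a model not revised since it received its ID, was carried by 30 of the 150 members (20%), by 9.94% of the 13613 transcripts of the band and by 13.4% of all 22957. The median version was 3 in each of these sets. This difference in shares was not tested, and transcripts of 1 gene are not independent. The share also differed between the band and all 22957, so it varied with the limits of the rule. The sets were not matched for control level, which was lower in the members than in the band.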

How the data were processed

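Total RNA of 25 pools of whole embryos was sequenced. As the paper and processing notes describe, the authors used Trimmomatic to trim reads, counted transcripts with Salmon on Ensembl GRCz11 and compared each dose with control in DESeq2. How transcripts were filtered before listing is not stated there. The labels' treatment text names other drugs, and groups were taken from the treatment label of each sample. The labels put the start of exposure at fertilization and the paper slightly later.

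Per the file headers, the authors deposited mean normalized counts of both groups (a signal), that is, counts divided by size factors and averaged over the libraries of a group. Only these were used. The tables also hold the authors' fold changes, standard errors, Wald statistics and p-values, which were not used. Averaging removes the spread between libraries, so 1 deviating library could set a mean.

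L was computed without a pseudocount. The members were chosen with earlier results of these data known, as were 19 gene lists, which were not applied because 0 IDs matched a gene in the tables of gene names or of RefSeq genes. IDs printed are the members with the lowest L and the highest control mean, as fixed for IDs without gene names; other members were picked for mention by rank, level or flatness, the last after their values were seen. Python 3.11.15, numpy 2.4.6, pandas 2.3.3 and matplotlib 3.10.9 were used.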

Additional observations from a re-analysis of the deposited data

How the results depend on the processing

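Membership depended on the limits of the rule. With the same number of transcripts taken, 98 of the 150 members remained with group means of at least 20, and 103 with at least 100. A limit of 0.1 at the higher doses kept 31 and one of 0.3 kept 65, where other transcripts took their places. The size of the difference moved with these limits. The median L of the list at 0.03 μg/L was -0.73 with means of at least 20 and -0.62 with at least 100. It was -0.50 with a limit of 0.1 and -0.78 with one of 0.3, against -0.67 in the main list. With the limit of 0.1 the list reached up to an L of -0.42, less than a 1.5-fold difference. Subtracting each table's median L kept 141 and a pseudocount of 1 kept 147. The median L of the members moved by under 0.1 at every dose with these last 2 settings. The same held with control means averaged over the 4 tables. With the table median subtracted or with the pseudocount of 1, 150 stayed at least 1.5-fold lower at 0.03 μg/L. Subtracting the median, adding the pseudocount and averaging the control means could not move L by much. They are thus no check on the size of the difference. The median L of a table was only 0.0007 to 0.022, and a count of 1 is small beside means of at least 50. The 4 tables also share the same control libraries. No paired analysis was possible because the values are group means, and replicates could not be left out for the same reason. The paper gives a target number of reads per sample, but the depth that each library reached is not in the values used.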
